A study of Arabidopsis thaliana with 44 samples.

Results

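The evening clock genes are 10 genes of the Arabidopsis circadian clock, taken by gene identifier from the 33557 genes of the expression table and not by any measured value. They are *TOC1* (AT5G61380), *PRR5* (AT5G24470), *PRR3* (AT5G60100), *GI* (AT1G22770), *ELF3* (AT2G25930), *ELF4* (AT2G40080), *LUX* (AT3G46640), *NOX* (AT5G59570), *CHE* (AT5G08330) and *ZTL* (AT5G57360). All 10 were in the table and none was listed at 0 in any group.

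The plant clock is built from transcription factors that repress each other at successive times of day. The MYB factors CCA1 and LHY accumulate around dawn and repress the evening genes. TOC1 and the related pseudo-response regulators repress *CCA1* and *LHY* in turn, and the evening complex of ELF3, ELF4 and LUX acts from dusk into the night. Cold is known to dampen clock rhythms in Arabidopsis, and several clock proteins act on the *CBF* genes, the transcription factors of cold acclimation.

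RNA was sequenced from the aerial part of plants, collected 4 h after the lights came on. The plants had 23 days of growth under a 12-h photoperiod before any cold treatment began. SW is an ecotype from Sweden and IT an ecotype from Italy that carries a nonfunctional *CBF2* allele. In the SW background, sw-cbf2 has *CBF2* mutated and sw-cbf123 all 3 *CBF* genes. The line sw-cbf23 is also in the SW background, and its mutated genes are known from its name alone. In the IT background, it8 was taken as it:*cbf123*, IT with all 3 *CBF* genes mutated. The labels give the Italian ecotype for it33 and 35s and no gene or construct, so both were set beside IT. The study's methods name plants that overexpress *CBF2*, and the labels do not say that 35s is that line. In the *cbf* mutants the genes were edited with CRISPR/Cas9, so each line carries the alleles of its own editing event. Warm plants stayed at 22°C, and cold plants spent either 24 h or 2 weeks at 4°C; of 35s only warm plants were taken. The 44 samples form 22 groups of 2, and the table holds the authors' pooled FPKM (a count of fragments relative to transcript length and to the size of the library) for each group. Replicate values are thus not seen in any comparison, and differences carry neither an error nor a p-value. Light was 100 to 120 µmol m-2 s-1 in the warm and about 35 in the cold, so temperature and light cannot be told apart, nor can age for plants kept cold for 2 weeks. With 1 time of day, a change in level and a shift in phase cannot be told apart, and in tissue samples fewer cells with a transcript and less of it per cell cannot be told apart.

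The FPKM sums of the 22 groups ran from 880990 to 1101300, and 20456 genes reached 1 FPKM in at least 1 group. The leaf markers *RCA* (3793 to 5715 FPKM in the warm, 802 to 2920 in the cold) and *CA1* (2318 to 3988 and 600.0 to 1265) were high in all groups and lower in the cold. The other leaf markers, *LHCB1.3* and *RBCS1A* (the small subunit of the enzyme that fixes carbon), did not follow this. *LHCB1.3* had 5653 to 11159 FPKM in the warm. At 24 h it had 3762 to 8232 in the SW background and 13072 to 13854 in the IT background. It was listed at 0 in all 7 groups of 2 weeks. *RBCS1A* had 19346 to 23948 FPKM in the warm and 16243 to 22087 at 24 h. At 2 weeks it was listed at 0 in sw-cbf123 and had 23792 to 29838 in the other lines. Whether these values of 0 are true levels cannot be told. The root hair genes *COBL9* and *EXP7* and the flower genes *AP1*, *AP3*, *PI* and *AG* were below 1 FPKM in every group. The root gene *PYK10* ran from 15 to 47.9 FPKM in the warm and from 0.972 to 12.8 in the cold, and *CASP1* reached 3.03 FPKM. The part of these markers in the results was not tested. The SW groups stood apart from the groups of their mutants: across genes the correlation of log2 levels was 0.955 to 0.976 between SW and a mutant and 0.979 to 0.986 between mutants, each over 9 pairs of groups, and genes are not independent replicates.

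The evening element, AAAATATCT, is the promoter motif bound by CCA1 and LHY, and it is shown because it is the sequence that ties evening genes to the morning factors. It was searched on both strands in the 1000 bases before the translation start in TAIR10.1, the RefSeq copy of the genome. This reference is of the Columbia accession, and no site or motif was checked in the sequence of SW or IT. In the reference 5 of the 10 genes held the element, with 8 sites in all. Over all 27444 promoters of the same length the share was 7.25%. The sites follow with 10 bases on each side, 5′ to 3′ on the strand of the gene. Capitals mark the element, which reads AGATATTTT where it lies on the other strand.
TOC1, 728 bases before the translation start, chr5:24674802-24674830: aaatatcatgAGATATTTTctccaagatg
TOC1, 39 bases before, in the 5′ UTR, chr5:24675491-24675519: ttctgtgattAGATATTTTttttgtgtgg
PRR5, 716 bases before, minus strand, chr5:8359244-8359272: cactagcattAGATATTTTttgggtttgg
PRR5, 292 bases before, minus strand, chr5:8358820-8358848: caattctactAGATATTTTttcaaatcca
PRR5, 187 bases before, minus strand, chr5:8358715-8358743: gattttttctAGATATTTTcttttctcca
ELF4, 609 bases before, minus strand, chr2:16735471-16735499: atactacaaaAAAATATCTtgcggattat
LUX, 259 bases before, chr3:17182979-17183007: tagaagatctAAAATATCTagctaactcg
NOX, 202 bases before, chr5:24003835-24003863: tgcgggtaaaAGATATTTTagattatcta

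*GI* has a long 5′ untranslated region, and its sites came into view only when the window was set before the start of the gene instead, an alternative added after the data were seen. With that window 6 of the 10 genes held the element (7.24% of all promoters), *GI* with 3 sites.
GI, 809 bases before the gene start, chr1:8060932-8060960: gtaagattttAAAATATCTtaaaagatgt
GI, 777 bases before, chr1:8060964-8060992: aggcccatttAGATATTTTctcaacgggc
GI, 591 bases before, chr1:8061150-8061178: agctcccctcAAAATATCTgtggacatat
The 4 genes without the element in either window were *PRR3*, *ELF3*, *CHE* and *ZTL*. Among 24 other genes of the clock network 5 held it before the translation start, *PRR9*, *FKF1*, *COR27*, *COR28* and *JMJ30*, and 2 before the gene start, *FKF1* and *COR27*. The other motifs were searched in the same way. AAAAATCT, the CCA1-binding site, stood in 6 of the 10 promoters (22.9% of all), and GATACG or GATTCG, bound by LUX, in 7 (42.6%). CACGTG, the G-box, stood in those of *LUX* and *NOX* (15.1%). ACCGAC or GCCGAC, the CRT/DRE element bound by the CBF proteins, stood in 4, *TOC1*, *PRR5*, *ELF3* and *LUX* (23.1%). The TCP site GGNCCCAC stood in 1, *CHE* (2.69%). In the 10 promoters 0 sites of one motif overlapped a site of another. A match to these letters is a description of the sequence and not a bound site.

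The genes lie on 4 chromosomes. In TAIR10.1 *TOC1* is at chr5:24674963-24678550 on the plus strand, *PRR5* at chr5:8356204-8358546 (minus), *PRR3* at chr5:24197971-24201415 (minus), *NOX* at chr5:24003888-24007844 (plus), *CHE* at chr5:2680401-2681993 (plus) and *ZTL* at chr5:23241320-23244590 (plus). *GI* is at chr1:8061751-8067790 (plus), *ELF3* at chr2:11058944-11063324 (plus), *ELF4* at chr2:16734294-16734953 (minus) and *LUX* at chr3:17183042-17186959 (plus). *LUX* overlaps AT3G46650 on the opposite strand over 1507 bases and *NOX* overlaps AT5G59580 over 1896 bases. AT3G46650 ran from 1.96 to 5.10 FPKM in the warm and from 0.420 to 2.72 in the cold, and AT5G59580 from 0.480 to 2.27 and from 0.201 to 1.28. *ELF3* overlaps AT2G25940 over 24 bases and the antisense RNA AT2G08135, not analysed here, over 183 bases. Whether strand was used in the counting is not given in the sources used here, so reads from these pairs cannot be told apart.

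In the cold 8 of the 10 genes were higher by a large factor in every line, at 24 h and again at 2 weeks. These were the 3 pseudo-response regulators, *GI*, the 3 genes of the evening complex and *NOX*, a close relative of *LUX*. *ZTL* stayed near its warm level, and *CHE* went the other way in the SW background. For the 8 genes that rose, the lowest of 14 cold groups lay above the highest of 8 warm groups. Over all genes that reached 1 FPKM in some group, 4.93% were apart in this way with the cold higher.

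**Figure D1:**
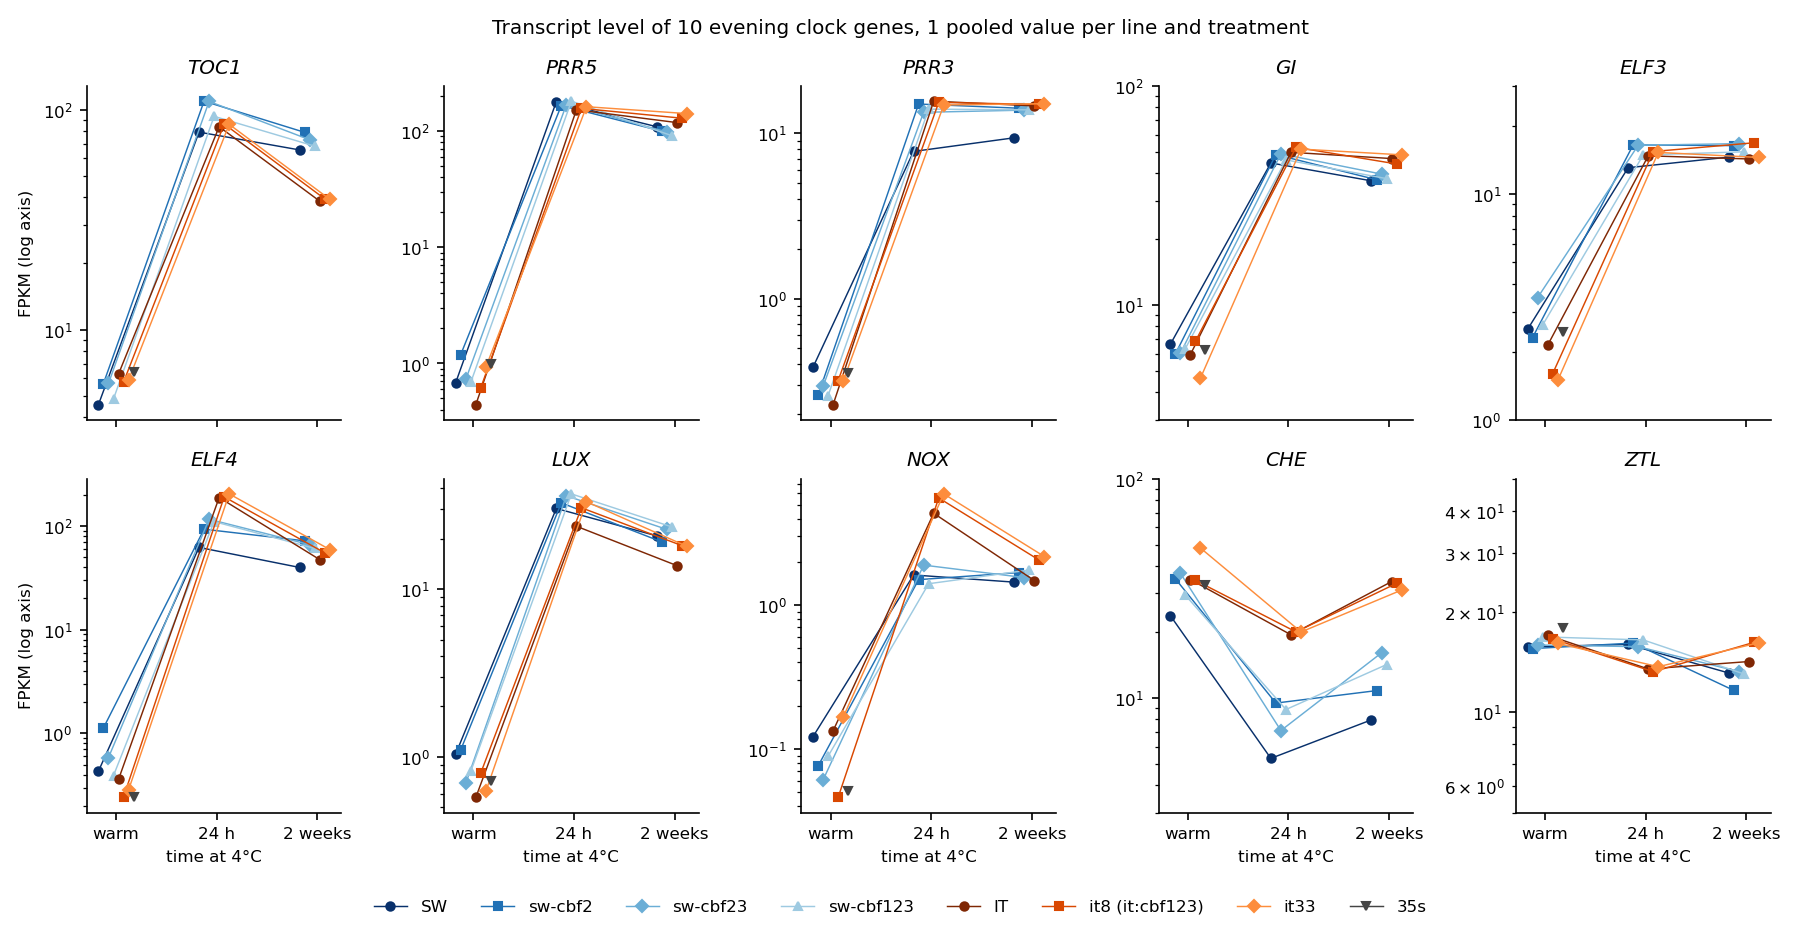
FPKM of the 10 genes (vertical log axes, a separate scale for each gene) in the warm and after 24 h and 2 weeks at 4°C, 1 pooled value for each line and treatment, with lines joining the values of a plant line. In 8 panels the cold values sit above all warm values, *ZTL* is nearly level, and in the *CHE* panel the SW background falls below the IT background in the cold.

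*TOC1*, which represses *CCA1* and *LHY* in the evening, ran from 4.55 to 6.39 FPKM over the 8 warm groups, with a median of 5.73. In the 14 cold groups it ran from 38.4 to 109, with a median of 79.0. Warm SW had 4.55 FPKM, with 79.1 at 24 h and 65.6 at 2 weeks, and IT had 6.28, 83.7 and 38.4. The warm levels of both ecotypes were close, and the main gap between them opened at 2 weeks, where SW held most of its 24 h level. The rise at 24 h was 17.4-fold in SW and 13.3-fold in IT, and at 2 weeks 14.4-fold and 6.11-fold.

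*PRR5*, another repressor of the morning genes, had the highest cold level of the 10 in most groups. Its 8 warm values ran from 0.442 to 1.19 FPKM (median 0.709) and its 14 cold values from 91.1 to 181 (median 147). Warm SW had 0.684 FPKM, with 179 at 24 h and 109 at 2 weeks. IT had 0.442, 152 and 118. The FPKM fold at 24 h was 261 in SW and 344 in IT, and both rest on a warm level below 1 FPKM. On the log2 scale with 0.5 FPKM added to both groups, the scale of all ratios from here on, the rises were 7.24 and 7.34.

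*PRR3*, which binds TOC1 and protects the protein from degradation, was the lowest of the 3 regulators. Warm levels ran from 0.229 to 0.385 FPKM (median 0.306) and cold levels from 7.75 to 15.6 (median 14.4). It stood at 0.385 FPKM in warm SW, and at 7.75 and 9.38 after 24 h and 2 weeks. The other 6 lines all lay between 13.4 and 15.6 FPKM at 24 h, and between 13.8 and 15.1 at 2 weeks. SW was thus apart from every other line in the cold, its own mutants included, and the other lines were nearly level with each other.

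*GI*, a large plant protein that stabilizes ZTL and promotes flowering, had 4.65 to 6.84 FPKM in the warm (median 6.15) and 36.9 to 52.5 in the cold (median 46.3). It was 6.62 FPKM in warm SW, 44.6 at 24 h and 36.9 at 2 weeks. In IT the values were 5.95, 49.8 and 46.7 FPKM. The rise at 24 h was 6.73-fold in SW and 8.37-fold in IT. Over 7 lines the highest level was 1.47-fold the lowest in the warm, 1.18-fold at 24 h and 1.31-fold at 2 weeks. The SW background had 44.6 to 49.0 FPKM at 24 h and the IT background 49.8 to 52.5. At 2 weeks they had 36.9 to 39.6 and 44.1 to 48.5. Over all genes the backgrounds did not overlap for 59.1% and 60.2%.

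*ZTL* encodes an F-box protein and blue-light receptor that marks TOC1 and PRR5 for degradation, and its transcript is known for having little rhythm. It had 15.5 to 17.9 FPKM in the warm (median 16.3) and 11.6 to 16.4 in the cold (median 13.9), with overlapping ranges. The log2 ratios of cold over warm lay between −0.40 and 0.05 over all 7 lines and both times. *ZTL* was the second highest of the 10 genes in warm SW and had dropped to the sixth place at 24 h, where 5 other genes had passed it, *CHE* had fallen below it, and its own level was 15.7 and 15.9 FPKM.

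The evening complex rose as a group, with very different factors. *ELF3*, its scaffold, had 1.49 to 3.47 FPKM in the warm (median 2.38) and 13.1 to 16.8 in the cold (median 15.3). In warm SW *ELF3* was 2.51 FPKM, then 13.1 at 24 h and 14.5 at 2 weeks, and IT had 2.14, 14.7 and 14.3. It was the member with the narrowest range of cold values among those that rose.

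*ELF4*, a small protein that binds ELF3, had the widest range of cold values among the 8 genes that rose. Its warm values ran from 0.242 to 1.13 FPKM (median 0.377) and its cold values from 39.8 to 204 (median 68.9). The level in SW went from 0.432 FPKM to 62.1 at 24 h and 39.8 at 2 weeks, and IT had 0.361, 188 and 47.3. At 24 h it was the highest of the 10 genes in IT and the third in SW. The log2 rise at 24 h was 6.07 in SW and 7.77 in IT.

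*LUX* encodes the DNA-binding protein of the complex, and *NOX* is its close relative. *LUX* had 0.573 to 1.10 FPKM in the warm (median 0.759) and 13.8 to 37.1 in the cold (median 23.7). Warm SW had 1.04 FPKM, which became 30.3 at 24 h and 20.8 at 2 weeks, and IT had 0.573, 23.8 and 13.8. The log2 rise of *LUX* at 24 h was 4.32 in SW and 4.50 in IT, and the backgrounds overlapped at that time.

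*NOX* was the lowest of the 10 genes in every group, at 0.0462 to 0.167 FPKM in the warm (median 0.0826) and 1.41 to 5.93 in the cold (median 1.72). At 24 h SW had 1.62 FPKM, and its mutants sw-cbf2, sw-cbf23 and sw-cbf123 had 1.5, 1.90 and 1.41. In IT it was 4.35, in it8 5.56 and in it33 5.93. All 3 lines of the IT background were thus more than 2-fold above all 4 of the SW background. The ratio of *LUX* to *NOX*, in FPKM and thus per length, was 18.7 to 26.3 in the SW background and 5.46 to 5.61 in the IT background at 24 h. At 2 weeks it was 11.4 to 14.6 and 8.28 to 9.33, so the backgrounds were closer. The level of *NOX* itself overlapped at that time, at 1.45 to 1.75 FPKM in the SW background and 1.48 to 2.18 in the IT background.

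*CHE*, a TCP factor that binds the *CCA1* promoter and interacts with TOC1, was the highest of the 10 genes in both ecotypes in the warm. Warm SW had 23.8 FPKM and the mutants sw-cbf2, sw-cbf23 and sw-cbf123 had 35.0, 37.1 and 29.4, against 34.7 in IT, 34.4 in it8, 48.3 in it33 and 32.8 in 35s. At 24 h the same SW lines had 5.30, 9.48, 7.10 and 8.86 FPKM, and IT, it8 and it33 had 19.4, 20.0 and 20.0. At 2 weeks they had 7.95, 10.8, 16.1 and 14.2 FPKM, and 33.9, 33.3 and 31.1. With a log2 ratio of −1 as the threshold, *CHE* was called lower in the cold in all 4 lines of the SW background, while in the IT background it33 alone was called, at −1.25 at 24 h (11.3% of all genes), and IT and it8 were at −0.82 and −0.77. The ratios in the 4 SW lines were −2.31 to −1.68 at 24 h and −1.65 to −1.03 at 2 weeks. The shares of all genes called lower in sw-cbf2, sw-cbf23 and sw-cbf123 were 12.1%, 11.9% and 11.5% at 24 h and 10.5%, 9.71% and 11.0% at 2 weeks. At 2 weeks the ratios in IT, it8 and it33 were −0.03, −0.04 and −0.63.

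To place these rises among all genes, a gene was called where the log2 ratio lay at or beyond 1 or −1 and the higher of both groups reached 1 FPKM. At 24 h 8 of the 10 genes were called higher and 1, *CHE*, lower in SW, where 14.6% and 14.7% of 18828 tested genes were called. In IT 8 were called higher and 0 lower, with 9.21% and 10.9% of 18619 genes called. At 2 weeks the counts were 8 higher and 1 lower in SW (9.39% and 11.4% of 18625) and 8 higher and 0 lower in IT (7.89% and 11.7% of 18725). The same 8 genes were called higher in all 7 lines at 24 h and again at 2 weeks, which held for 4.11% and 2.41% of the genes tested in all 7 lines. Some genes could enter only through their cold value. *PRR5*, *PRR3*, *ELF4* and *NOX* were below 1 FPKM in warm SW, and with *LUX* in warm IT, so that 6 and 5 of the 10 were tested whatever the cold did. Of those, *TOC1*, *GI* and *ELF3* were called higher in all 7 lines.

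The median log2 ratio of the 10 genes at 24 h was 2.94 in SW and 3.30 in IT, with −0.02 and −0.06 over all genes tested. At 2 weeks it was 2.94 and 2.69, with 0.03 and −0.03. These medians and the ranks below include *PRR5*, *PRR3*, *ELF4* and *NOX*, and in IT *LUX*, which were tested only through their cold value. *PRR5* ranked 21 from the top in SW at 24 h and 16 in IT, and *ELF4* 52 and 11. *LUX* ranked 137 and 101, *TOC1* 176 and 145, and *PRR3* 298 and 102. *GI* ranked 488 and 215, *ELF3* 737 and 306, and *NOX* 1096 and 221. Each of the 8 ranked nearer to the top in IT, where fewer genes were called higher, and *TOC1* did so with a smaller ratio than in SW (3.64 and 3.98).

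**Figure D2:**
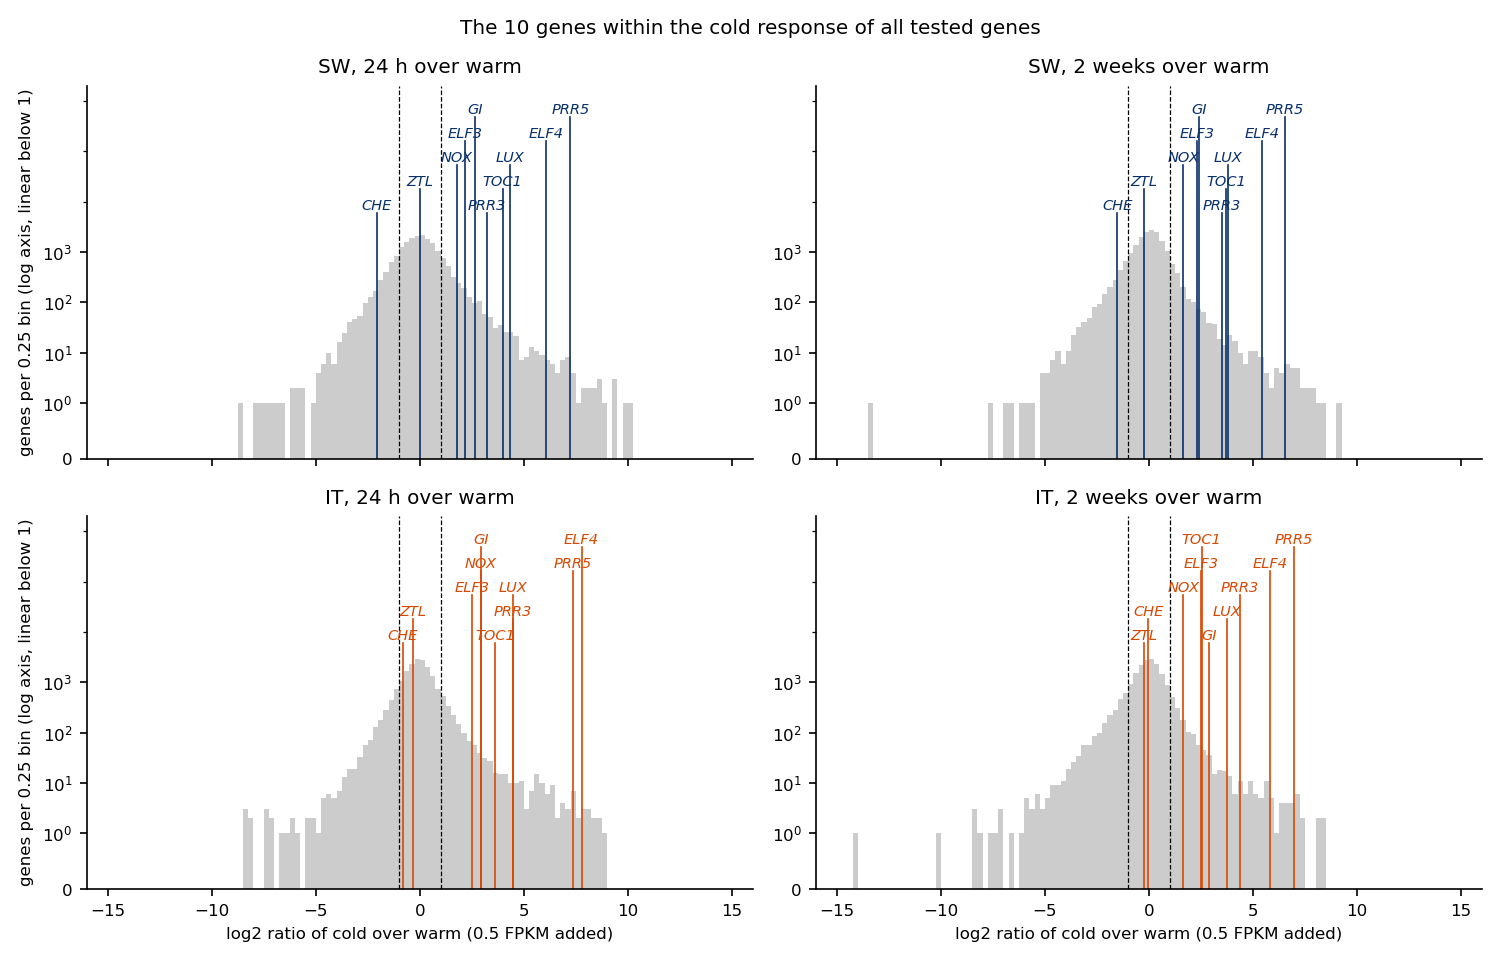
Histograms of the log2 ratio of cold over warm for all genes tested in SW and IT at 24 h and 2 weeks (horizontal axis, 0.25 per bin; vertical log axis, number of genes), with a vertical line for each of the 10 genes and dashed lines at 2-fold. *PRR5* and *ELF4* lie far out on the right at 7.24 and 6.07 in SW and 7.34 and 7.77 in IT at 24 h, and *CHE* lies left of the dashed line at −1 in SW alone.

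Going from 24 h to 2 weeks in the cold, 3 of the evening genes were called lower in the 3 lines of the IT background and 0 in the 4 of the SW background. *TOC1* was called lower in IT, it8 and it33, each at a log2 ratio of −1.12. *ELF4* was lower by −1.98, −1.78 and −1.77, and *NOX* by −1.29, −1.25 and −1.26 in the same order. Among all genes, 10.4% were called lower in IT, 11.0% in it8 and 11.0% in it33. With quantile normalization *TOC1* was no longer called in the 3 lines, at −0.91, −0.94 and −0.93.

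In SW 0 of the 10 genes were called in this comparison (16.4% of all genes in either direction), and 0 were in sw-cbf2 (14.0%) and sw-cbf123 (12.5%). The ratios in SW were −0.27 for *TOC1*, −0.71 for *PRR5*, −0.64 for *ELF4*, −0.53 for *LUX* and −0.12 for *NOX*. In the SW mutants some came closer to the threshold, with *PRR5* at −0.98 and *ELF4* at −0.85 in sw-cbf123. The difference between the backgrounds in these ratios was not tested. In sw-cbf23 1 gene was called, *CHE*, which was higher at 2 weeks by 1.12 (6.59% of all genes). *ELF3* and *PRR3* kept their 24 h levels in all lines, with ratios between −0.09 and 0.26.

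**Figure D3:**
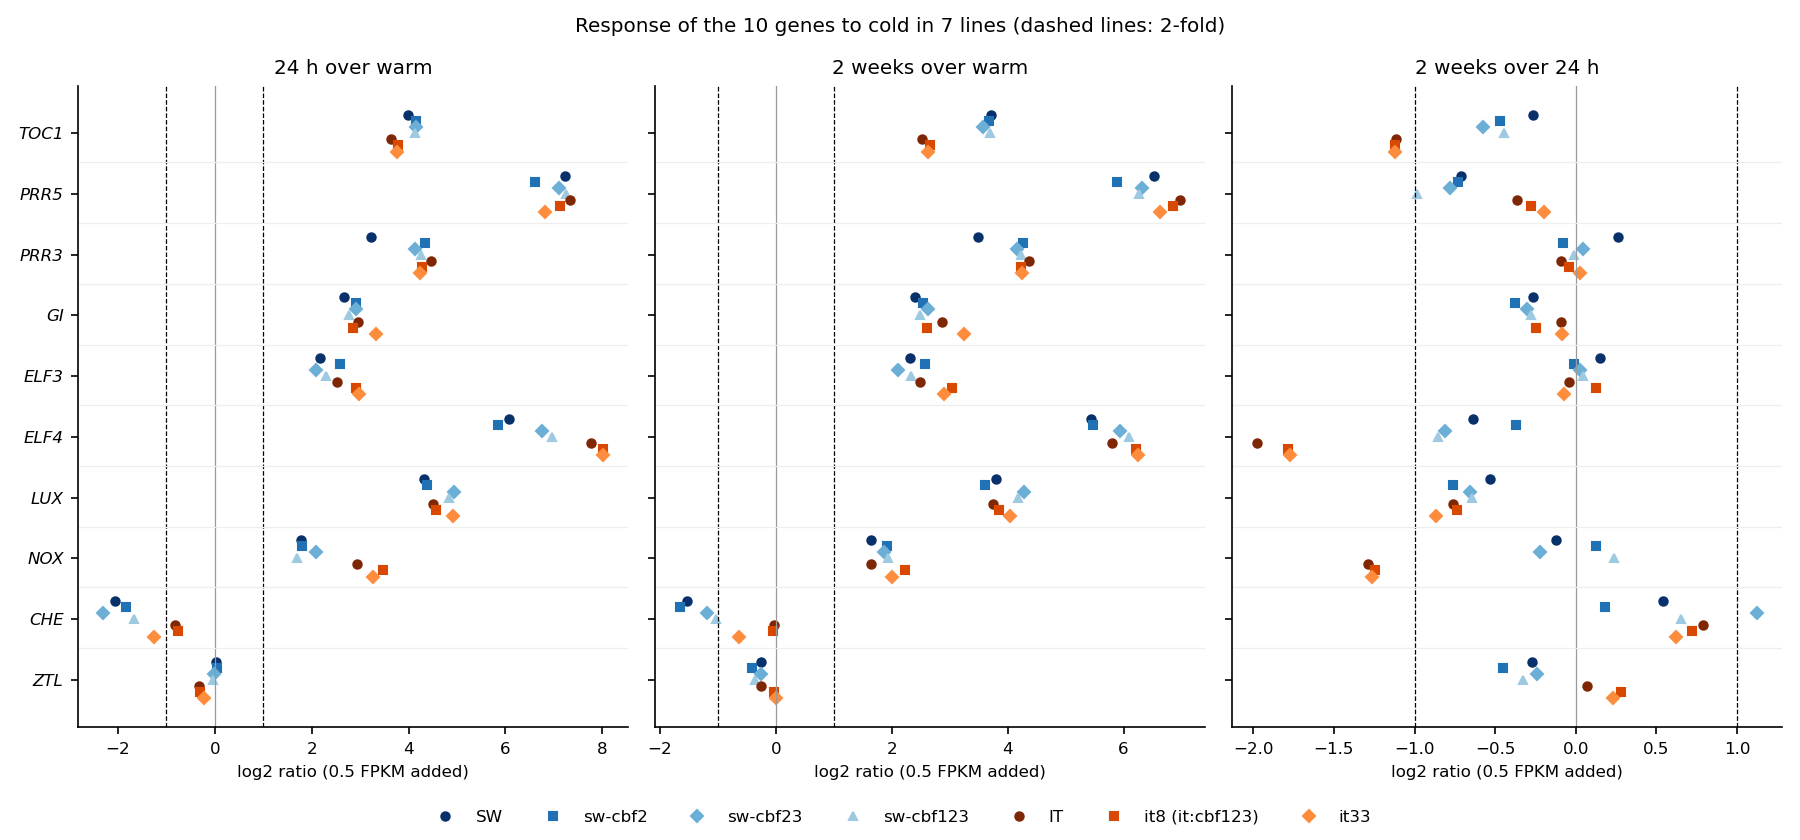
Log2 ratios (0.5 FPKM added) of the 10 genes at 24 h over warm, 2 weeks over warm and 2 weeks over 24 h, 1 point for each of 7 lines, with dashed lines at 2-fold. Blue points are the SW background and orange points the IT background. Over warm, *PRR5* and *ELF4* lie farthest to the right, *ZTL* stays between the dashed lines and *CHE* lies left of 0.

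The evening genes of SW and IT were compared at each treatment. SW has a functional *CBF2* allele and IT does not, but the ecotypes also differ in other genes, so the part of *CBF2* cannot be told apart. In the warm none of the 6 genes that reached 1 FPKM was called (27.9% of all genes in either direction). At 24 h 3 genes were called lower in SW, *CHE* by −1.78, *ELF4* by −1.59 and *NOX* by −1.19, where 15.5% of all genes were called lower. *PRR3* was at −0.96, short of the threshold. At 2 weeks *CHE* alone was called, at −2.03 (13.5% of all genes called lower), and *TOC1* was at 0.77. At 24 h 3 of 10 was above the 15.5% of all genes, and at 2 weeks 1 of 10 was near the 13.5%. With 10 genes and no test, neither count is read as a result about the set.

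The responses to cold were also set against each other, as the log2 ratio of cold over warm in SW minus that in IT. At 24 h 4 genes passed 1 in size, *ELF4* (−1.70), *CHE* and *PRR3* (both −1.24) and *NOX* (−1.17), where 14.9% of all genes did. At 2 weeks 2 passed, *CHE* (−1.49) and *TOC1* (1.19), with 19.4% of all genes. The same difference was taken between the median of the SW mutants and the median of it8 and it33, which leaves out both wild types. At 24 h it was −1.27 for *ELF4*, −1.57 for *NOX*, −0.82 for *CHE* and 0.00 for *PRR3*, and at 2 weeks 1.04 for *TOC1* and −0.85 for *CHE*. The difference in *PRR3* was thus seen with the SW wild type and not without it.

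Across lines, the levels of the 4 lines of the SW background and the 3 of the IT background did not overlap for 3 of the 8 genes tested in the warm, 6 of 10 at 24 h and 7 of 10 at 2 weeks. Over all genes this held for 63.1%, 59.1% and 60.2%, so the counts were near the background at 24 h and 2 weeks and below it in the warm. With 0.5 FPKM added, *NOX* at 24 h was the 1 case with all values at least 2-fold apart, where 10.3%, 9.04% and 8.34% of all genes were at warm, 24 h and 2 weeks, and the median of the IT background was 3.56-fold that of the SW background. *CHE*, which at 24 h was apart by 2-fold only without the added 0.5 FPKM, came next, at 2.51-fold at 24 h and 2.67-fold at 2 weeks. *ELF4* was 62.1 to 116 FPKM in the SW background and 188 to 204 in the IT background at 24 h, 1.88-fold between medians, and overlapped at 2 weeks. *TOC1* was 65.6 to 78.9 FPKM and 38.4 to 39.3 at 2 weeks, here with SW 1.81-fold higher, and overlapped at 24 h.

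None of the evening genes was called between any of the other lines and the wild type it was set beside. Over 16 comparisons, of the SW mutants with SW and of it8, it33 and 35s with IT, each with 5 to 10 genes tested, 0 were called. In FPKM alone, with nothing added, *ELF4* in warm sw-cbf2 was 2.62-fold and *CHE* in sw-cbf23 at 2 weeks 2.02-fold the SW level, and *PRR5* and *NOX*, below 1 FPKM and not tested, also differed by more than 2-fold from IT in some warm groups. With 0.1 FPKM added, *ELF4* in warm sw-cbf2 (1.21) and *CHE* in sw-cbf23 at 2 weeks (1.01) passed the threshold. Among all genes the share called in either direction, for warm, 24 h and 2 weeks, was 2.5%, 6.57% and 4.11% for sw-cbf2, 3.78%, 5.44% and 5.36% for sw-cbf23, and 4.32%, 10.8% and 6.06% for sw-cbf123. In the same order it was 2.17%, 2.38% and 1.64% for it8 and 1.25%, 1.6% and 1.74% for it33. It was 5.46% for 35s in the warm, where *CBF2* stood at 540 FPKM (0.202 in IT) and the 10 genes, 5 of them tested, had ratios from −0.22 to 0.65. The 8 genes that rose were called higher in sw-cbf123 (12.1% of all genes at 24 h, 9.22% at 2 weeks) and in it8 (11.4% and 8.08%) as in the wild types.

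**Figure D4:**
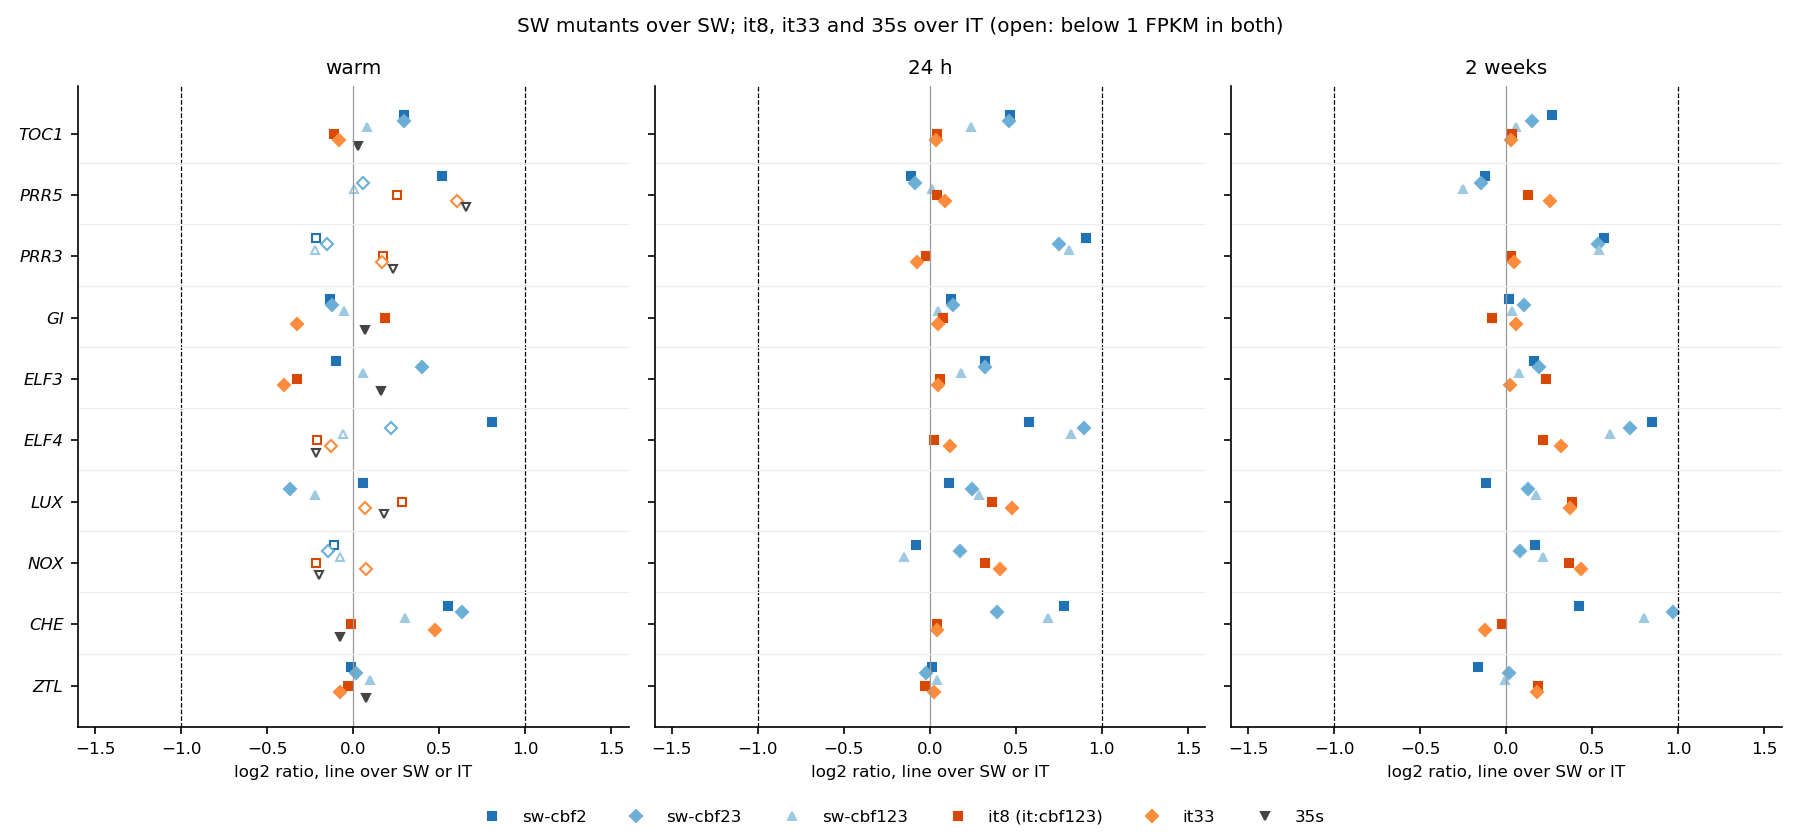
Log2 ratios (0.5 FPKM added) of each SW mutant over SW, and of it8, it33 and 35s over IT, for warm, 24 h and 2 weeks, with dashed lines at 2-fold and open symbols where both groups were below 1 FPKM. All points lie between the dashed lines, and the blue points of *PRR3*, *ELF4* and *CHE* in the cold lie to the right of 0.

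The values nearest to the threshold were all above SW. *CHE* in sw-cbf23 at 2 weeks was at 0.97, *PRR3* at 24 h at 0.91 in sw-cbf2, 0.75 in sw-cbf23 and 0.81 in sw-cbf123, and *ELF4* at 24 h at 0.58, 0.90 and 0.82. In FPKM, *PRR3* was 7.75 in SW and 13.4, 14.0 and 15 in its 3 mutants at 24 h. *ELF4* was 62.1 in SW and 93.0 to 116 in the mutants, and *CHE* 5.30 and 7.10 to 9.48. The median of the mutants was 1.80-fold, 1.77-fold and 1.67-fold the SW level.

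SW lay below the range of its 3 mutants for 7 of the 10 genes at 24 h and above it for 0, and at 2 weeks below for 7 and above for 1. Over all genes SW lay outside that range, in either direction, for 76.8% and 81.7%. Such shares are high even without a difference, since some group is always the highest and some group the lowest. The share of all genes with SW below its mutants was not taken, so the counts by direction have no background. In IT 8 genes lay below both it8 and it33 at 24 h and 1 above (73.3% of all genes outside). At 2 weeks the counts in IT were again 8 below and 1 above. For IT too the direction was not taken over all genes. The part that the SW libraries as a whole had in *PRR3*, *ELF4* and *CHE* was not tested.

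The other clock genes followed the evening genes in part. Of 24 in the list, 12 were called higher and 2 lower in SW at 24 h (14.6% and 14.7% of all genes) and 6 and 2 in IT (9.21% and 10.9%). At 2 weeks the counts were 9 and 1 in SW (9.39% and 11.4%) and 8 and 0 in IT (7.89% and 11.7%). The median ratio of the list at 24 h was 0.90 in SW and 0.43 in IT. *CCA1*, *RVE1*, *FKF1*, *COR27*, *COR28* and *JMJ30* were called higher in all 7 lines at 24 h (4.11% of all genes), and these and *PRR9* at 2 weeks (2.41%).

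*FKF1*, a relative of *ZTL* with a rhythmic transcript, ran from 0.0872 to 0.338 FPKM in the warm and from 42.5 to 120 in the cold. *COR27* and *COR28*, cold-regulated evening genes that act in the clock, ran from 0.0321 to 0.687 and 0.0391 to 0.329 FPKM in the warm and from 94.8 to 392 and 32.0 to 164 in the cold. Their log2 rises at 24 h were 6.47 or more in all 7 lines, and those of *PRR5* and *ELF4* ran from 5.84 to 8.02. *LKP2*, the remaining relative of *ZTL*, had 4.94 to 6.29 FPKM in the warm and 4.27 to 10.12 in the cold and was called in no line. *JMJ30*, an evening-expressed histone demethylase, went from 0.393 to 0.934 FPKM to 5.52 to 9.52.

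The morning genes differed from each other. *CCA1* had 71.1 to 86.9 FPKM in the warm and 165 to 365 in the cold, so it rose together with the evening genes that it represses. *LHY* was called higher in SW at 24 h, at 1.85, and was −0.09 in IT. *RVE1*, which links the clock to auxin, had 4.35 to 8.76 FPKM in the warm and 16.5 to 57.4 in the cold. *PRR9* was at 1.06 in SW and 0.45 in IT at 24 h, and *PRR7* at −0.04 and 0.81, so the 2 remaining regulators responded by far less than *PRR5*, *TOC1* and *PRR3*. Among 7 targets of the evening genes were *PIF4* and *PIF5*, growth genes repressed by the evening complex. Both were called lower at 24 h in SW (14.7% of all genes) and IT (10.9%). Neither was called in all 7 lines (*PIF4* was at −0.92 in it8 and *PIF5* at −0.87 in sw-cbf23) and neither in IT at 2 weeks. The part of the evening complex in this was not tested. *GRP7*, an RNA-binding protein of a clock-driven loop, was called higher in all 7 lines at 24 h (4.11% of all genes) and 2 weeks (2.41%). It had 17.0 to 49.4 FPKM in the warm and 373 to 5974 in the cold. Its relative *GRP8* was called higher in IT at 24 h (1.35, with 9.21% of all genes) and lower in SW at 2 weeks (−1.50, with 11.4%). *CDF1*, a repressor of *CO*, was called in neither ecotype. *CO* and *FT*, which act after *GI* in flowering, were below 1 FPKM in every group.

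**Figure D5:**
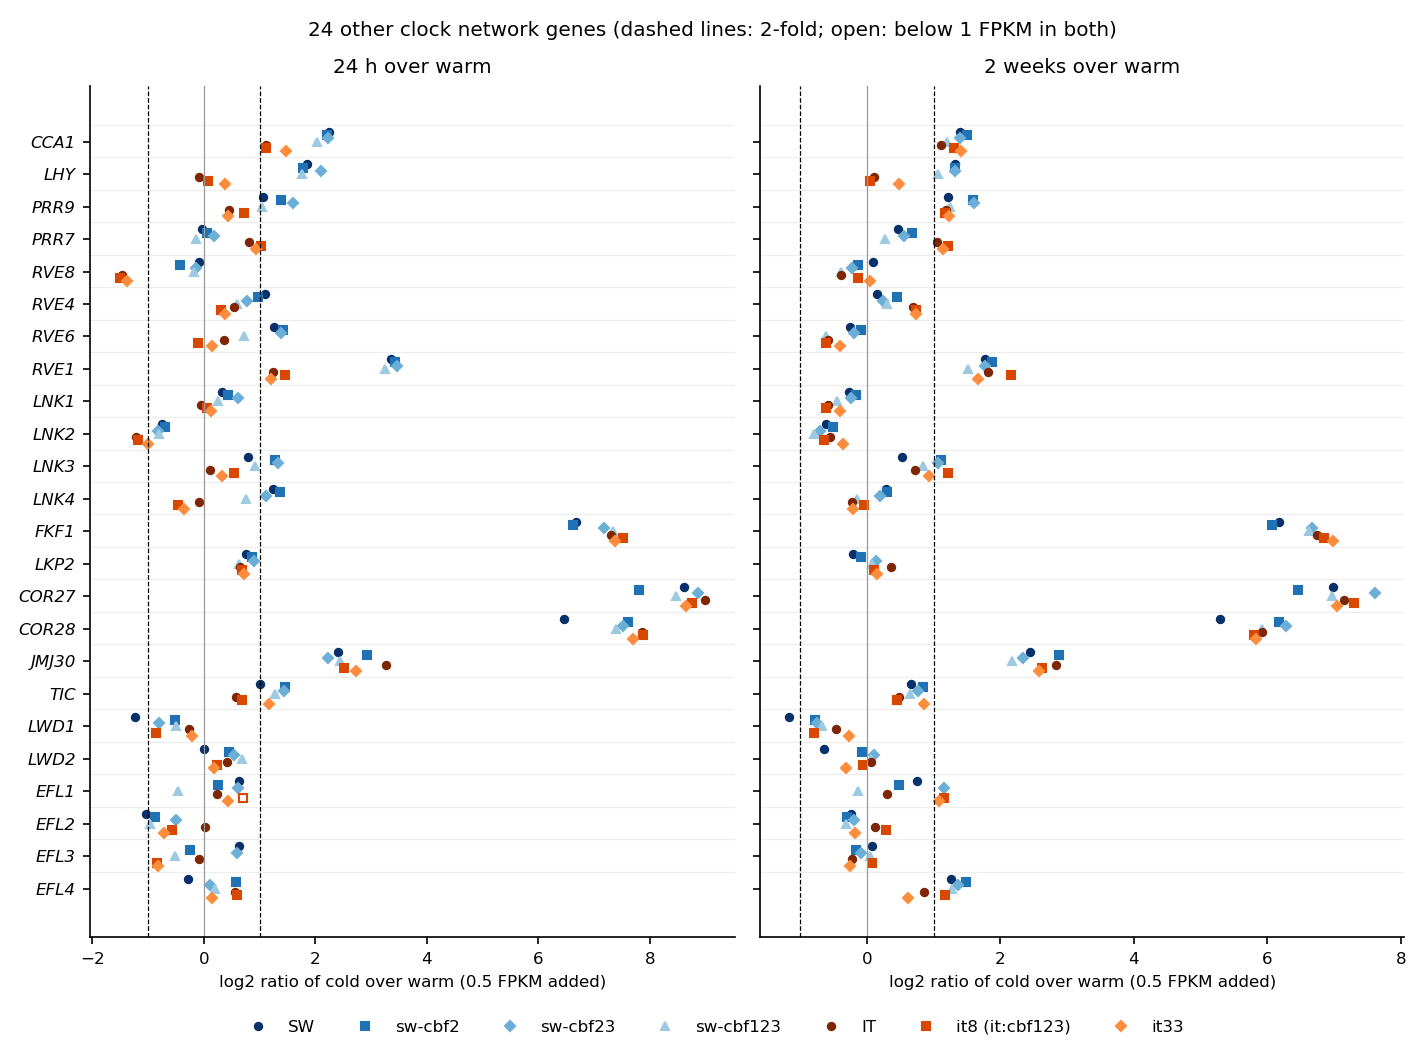
Log2 ratios of cold over warm (0.5 FPKM added) for 24 other clock network genes at 24 h and 2 weeks, 1 point per line, with dashed lines at 2-fold. *FKF1*, *COR27* and *COR28* lie far to the right in all lines, while *LKP2* and *LNK1* stay between the dashed lines.

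The profiles over the 22 groups were compared with those of 20455 other genes by Pearson correlation of log2 levels (0.5 FPKM added), as a description, since all groups share the contrast of cold with warm. *FKF1* was nearest to *PRR5* (r = 0.997), *GI* (0.996) and *PRR3* (0.995). *LUX* was second nearest to *TOC1* (0.988), after *NSF* (0.989) and before *PTAC17* (0.987). Nearest to *ELF4* were *COR28* (0.994), *BBX8* (0.993) and AT2G21130 (0.993), and nearest to *LUX* were *CYCT1;3* (0.993), *COR27* (0.993) and AT1G07050 (0.992). *ELF3* was nearest to *RIBA2* (0.989). For these 7 genes between 107 and 180 genes reached an r of 0.95.

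The profiles of *NOX*, *CHE* and *ZTL* had fewer neighbours. *NOX* had 17 genes at 0.95 or more, led by AT2G16365 (0.969), *CHE* had 13, led by AT3G50685 (0.976) and the photosystem I antenna genes *LHCA4* (0.972) and *LHCA1* (0.962), and *ZTL* had 0, its nearest gene being AT5G54585 (0.879). Within the 14 cold groups, *TOC1* and *LUX* had an r of 0.865, *PRR5* and *GI* 0.808, and *ELF4* and *NOX* 0.808. *TOC1* and *CHE* had −0.725 and *TOC1* and *PRR3* −0.088, where over all 22 groups *TOC1* and *PRR3* had 0.965. These groups share ecotypes, treatments and mutant backgrounds, so no p is given.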

How the data were processed

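RNA was sequenced from aerial tissue in 44 samples, 2 in each of 22 groups of 8 lines, grouped by the sample labels. The deposited values are FPKM, estimated by the authors with Cuffdiff of Cufflinks (2.1.1 in the submitters' processing notes) from reads aligned to TAIR10 with TopHat2 2.1.0, as 1 pooled value per group for 33557 genes. These values give neither the depth of a library nor a sampling error. No model was fitted, since a group has 1 value.

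Ratios are on the log2 scale with 0.5 FPKM added to each value. Calls needed a log2 ratio at or beyond 1 or −1, with the higher group at 1 FPKM or above. All genes of the table were used, and only the members are described. Shares called over all genes are given with the counts. Alternatives were 0.1 or 1 FPKM added, no filter, quantile normalization, median-of-ratios scaling and, for motifs, the forward strand only; 500 bases, and 1000 bases before the gene start, were added later. Gene positions and sequences are from TAIR10.1 of RefSeq, where *LUX*, *NOX* and *CHE* are listed as PCL1, BOA and TCP11; identifiers were matched, and the table itself holds no coordinates. Of other lists, counts are given, and values for *CCA1*, *LHY*, *PRR9*, *PRR7*, *COR27*, *COR28*, *FKF1* and *LKP2* and for genes called the same way in all 7 lines at 24 h; *PIF4*, *PIF5*, *GRP8*, *CDF1*, *CO* and *FT* were named after their values were seen. For likeness the 3 genes of highest r were ranked for each member. Work was done in Python 3.11.15 with NumPy 2.4.6, pandas 2.3.3 and matplotlib 3.10.9, and tested on simulated data. The members, lists and comparisons were chosen with earlier results of these data known.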

Additional observations from a re-analysis of the deposited data

How the results depend on the processing

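No paired analysis was possible because the table holds 1 pooled value per group and no replicate. For the same reason no replicate could be left out. Over the planned scalings, pseudocounts and filter 0 values changed sign past the threshold. With 0.1 FPKM added, 1 of the 10 genes was called higher in sw-cbf2 over SW in the warm (*ELF4*, 1.21) and 1 in sw-cbf23 over SW at 2 weeks (*CHE*, 1.01), where 0 were with 0.5, and the difference in *PRR3* response between SW and IT at 2 weeks passed the threshold at −1.20. Quantile normalization left *TOC1* at −0.91 in IT, −0.94 in it8 and −0.93 in it33 for 2 weeks over 24 h. All other counts of called members stayed within 1.5-fold. On the forward strand alone the evening element stood in 2 promoters, the CCA1-binding site in 2, the LUX-binding site in 3, the CRT/DRE element in 0 and the TCP site in 0. In 1000 bases before the gene start the CCA1-binding site stood in 3 and the TCP site in 0, and in 500 bases the LUX-binding site in 4. The scalings moved the median ratio of all genes by at most 0.13 (quantile, SW over IT in the warm). Values below 1 FPKM, as those of *PRR3*, *ELF4* and *NOX* in the warm, set the size of their folds and have no known error.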
